A study of Mus musculus with 12 samples.

Results

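DNA methylation at CpG islands was compared between the ES cell lines CC9pahari and CC9spretus, chosen by their titles as 6 of the 12 arrays of the series, with 3 biological replicates of each line. Both lines came from CC9.3.1 ES cells, which were derived from a 129SvEv-Gpi1c(129S6) mouse embryo. CC9.3.1 cells depleted of mitochondria had been fused with cytoplasts, which are cells without a nucleus, so that CC9spretus cells carried the mtDNA of Mus spretus and CC9pahari cells that of Mus pahari, while both kept the same *M. musculus* chromosomes. The cells were grown with LIF on feeder cells of mitomycin C-treated embryonic fibroblasts and were kept without feeders for 48 h before use. Each mtDNA is represented by a single cell line, so that a difference due to mtDNA and a difference between cell lines cannot be told apart.

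In mammals, DNA methylation is the addition of a methyl group to cytosine (5mC), mostly where the cytosine is followed by guanine. Most CpG islands, the stretches rich in such sites that lie at many promoters, stay unmethylated, whereas a minority, such as the control regions of imprinted genes, carry 5mC on the copy from a single parent. Mitochondria bear on this mark through the TCA cycle, which supplies α-ketoglutarate, a cofactor of the TET enzymes that oxidise 5mC. The comparison asked whether ES cells with the same chromosomes and different mtDNA differed in the methylation of their chromosomal DNA.

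Methylation was read by MeDIP. Sonicated DNA of 200 to 1000 bp was precipitated with an antibody to 5mC (IP) and labelled with Cy5, and input DNA was labelled with Cy3. Both were hybridised to 2-colour arrays of 88737 probes of 45 to 60 bases. The methylation level is given as log2(IP/input), centred on the median of each array, so that 0 is the typical probe of that array and 1 unit is a 2-fold ratio. Probes were also averaged into 14580 loci, in which each probe lay within 1000 bp of the next on mouse build mm9, with a median of 5 probes per locus. The files did not pair probes with genes, and the annotation at hand was on another build. Therefore, loci are named here by position, and gene lists, imprinted genes and markers of ES cells or feeder cells were not analysed here.

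On the 6 arrays, 83.8% to 93.8% of probes had an IP signal well above background, and 95.2% to 99.8% an input signal. Replicate 3 of both lines was scanned in a later period than replicates 1 and 2, and 7133 probes differed between the periods (limma, adjusted p under 0.05), 5801 of them higher in the later period. Scan period was therefore a term of the model. Replicates 1 and 2 of CC9pahari also shared a slide, whereas each CC9spretus array lay on a slide apart from the other arrays compared. Replicates 1 and 2 of CC9pahari were scanned on the same day, and those of CC9spretus on separate, earlier days. Within the earlier period, slide, scan day and line cannot be told apart.

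Over all probes, the mean Euclidean distance between arrays of different lines was 1.017 times that between arrays of the same line. Over the 10 splits of the arrays, which take no account of scan period, the one-sided exact permutation p was 0.5, where the lowest that can be reached is 0.1. Within the earlier period the ratio was 1.225, the largest of the 3 splits (exact p = 0.333, the lowest that 3 splits allow), so that 4 arrays cannot settle whether the lines differed as a whole. Replicates 1 and 2, from the same period, correlated at 0.889 in CC9spretus and at 0.932 in CC9pahari, where they shared a slide and scan day. Arrays of different lines scanned in the same period correlated at 0.851 to 0.895, and arrays of the same line from different periods at 0.804 to 0.822.

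Among loci of at least 4 probes, most differences of largest size lay where CC9spretus DNA was methylated and CC9pahari DNA was near the typical probe. Of these loci of at least 4 probes, 11 had a difference beyond −2 and 1 beyond 2 on the log2 scale. Over all loci, whatever their number of probes, 16 and 2 did. This limit was chosen after the values were seen, so that the size of these differences, their non-overlap and the direction of their probes describe the choice and are no test. Of the 12 loci, 1 passed the test over all loci. At the 11 loci, the CC9spretus arrays lay between 1.48 and 4.69, and the CC9pahari arrays between −0.90 and 0.75. The arrays of the lines did not overlap at any of the 11 loci. For comparison, 14.1% of all loci had no overlap between the lines, 4.84% with CC9spretus higher and 9.25% with CC9pahari higher. The loci just outside the limit had differences of −1.80 and −1.78. Whether these loci lie in genes or in imprinted control regions was not analysed here.

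Locus 1, at chr11:22872000-22873052 with 9 probes, had values of 2.26, 4.02 and 3.63 on the CC9spretus arrays and of −0.44, −0.90 and 0.00 on the CC9pahari arrays. All the CC9spretus arrays were enriched at this locus and none of the CC9pahari arrays was. The level was 3.75 lower in CC9pahari (SE 0.43, limma with scan period, adjusted p = 0.0475). It was the locus of the set that passed. Over 20 alternative settings it passed in 7 and not in 13, among them the model with replicate number as a block. The difference was −3.81 in the earlier and −3.62 in the later period, and all 9 probes were lower in CC9pahari, by 1.45 to 5.17. Of the 27 CC9pahari IP spots at this locus, 17 were well above background (63.0%, the lowest share of the 11 loci), and with normexp the difference was −1.52 (adjusted p = 0.190).

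Locus 2, at chr7:150481208-150482535 with 8 probes, had values of 2.61, 4.46 and 2.83 in CC9spretus and of −0.27, −0.38 and 0.19 in CC9pahari. The difference was −3.45 (SE 0.49, adjusted p = 0.0619). The other lines of the series lay near CC9pahari here, the CC9dunni line (*M. terricolor* mtDNA) at −0.48, −0.50 and 0.35, and the CC9mus line (*M. musculus* mtDNA) at −0.14, −0.10 and −0.48. Locus 3, at chr7:6682111-6683212 with 9 probes, had values of 2.34, 4.24 and 1.94 in CC9spretus against −0.32, −0.39 and −0.38 in CC9pahari. The difference was −3.20 (SE 0.51, adjusted p = 0.0673). The CC9pahari arrays were nearly identical at this locus and the CC9spretus arrays spread over more than 2 log2 units.

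Locus 4 was the longest of the set, at chr2:174122729-174126550 with 24 probes. Its values were 2.64, 4.42 and 2.36 in CC9spretus, and −0.02, 0.07 and 0.28 in CC9pahari, with a difference of −3.03 (SE 0.49, adjusted p = 0.0701). All 24 probes were lower in CC9pahari without overlap between the lines, by 1.45 to 4.25, so that the difference ran along the whole locus. Locus 5, at chr7:135831552-135832148 with 6 probes, had values of 2.80, 4.53 and 1.48 in CC9spretus and of −0.01, 0.08 and −0.17 in CC9pahari. The difference was −2.97 (SE 0.55, adjusted p = 0.0934).

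The other 6 loci with less methylation in CC9pahari lay at chr2:157385700-157386395, chr11:11925467-11926345, chr17:12934260-12935460, chr12:110766379-110766726, chr10:12810275-12811158 and chr6:58856617-58857246. They are loci 6 to 11 of the plot, with differences from −2.70 to −2.26 and adjusted p from 0.0624 to 0.146. CC9spretus replicate 2 was the highest of its line at 11 of the 11 loci and replicate 3 the lowest at 9. The SD was 0.84 to 1.53 in CC9spretus and 0.02 to 0.45 in CC9pahari (n = 3 each). Replicates 1 and 2 shared a slide and scan day in CC9pahari and not in CC9spretus. The difference ranged from −3.86 to −2.86 in the earlier period and from −3.62 to −1.07 in the later period.

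**Figure D1:**
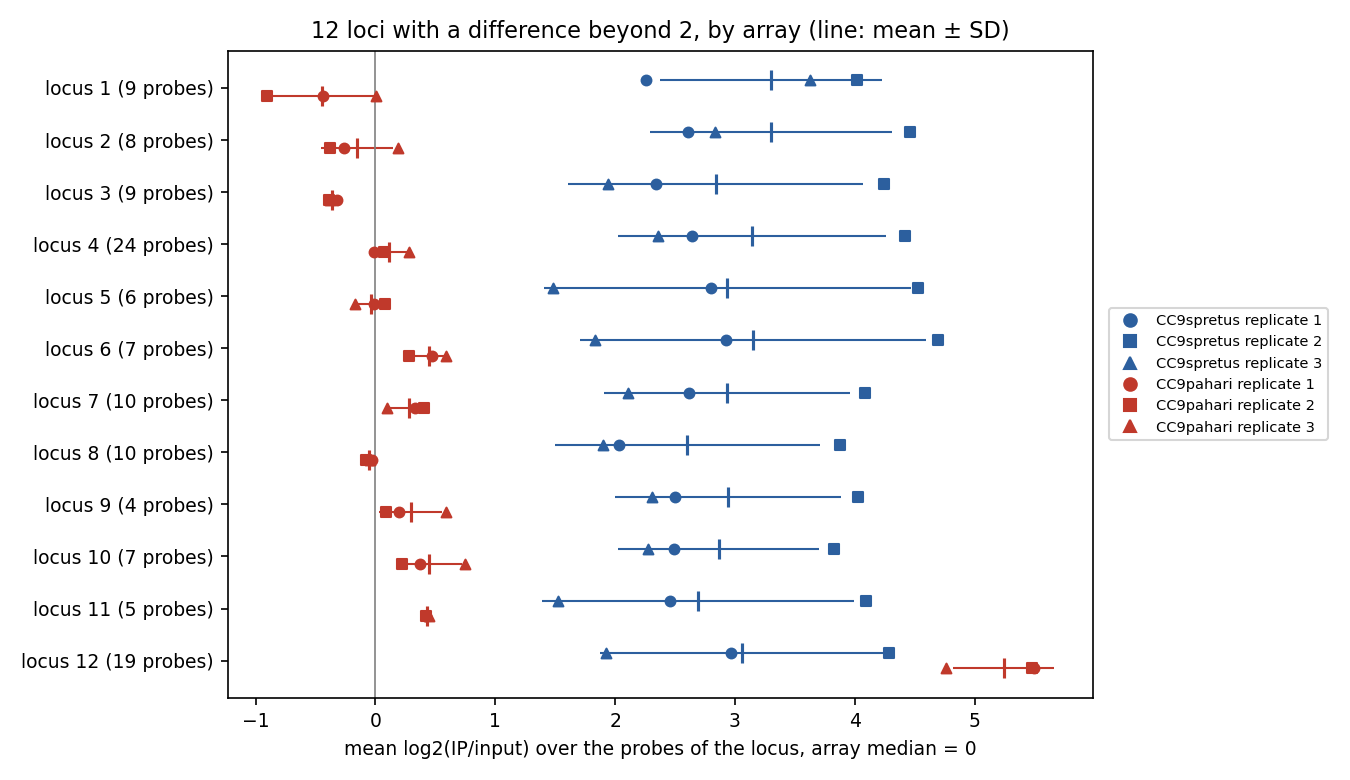
Mean log2(IP/input) over the probes of 12 loci on each of the 6 arrays, with the mean and SD of each line as a tick and a bar. CC9pahari arrays lie near 0 at loci 1 to 11, where CC9spretus arrays lie between 1.48 and 4.69, and above the CC9spretus arrays at locus 12.

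Within 100 kb of the 11 loci, 18 other loci were measured. They differed between the lines by −0.55 to 0.49, and none by more than 1, a size that 1.47% of all loci exceeded, so that nothing particular to the surroundings can be read from them. No other locus was measured within that distance of locus 2. Within the loci, all 99 probes were lower in CC9pahari and 93 did not overlap between the lines (10.9% of all probes did not overlap), counts that the choice of the loci by their mean largely fixed. The plot of probes covers loci 1 to 5 and locus 12. At loci 1 to 5 the means of the lines were apart at each probe, by uneven amounts. Locus 10, which was not plotted, held a probe with a difference of −0.05, where the arrays of the lines overlapped.

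**Figure D2:**
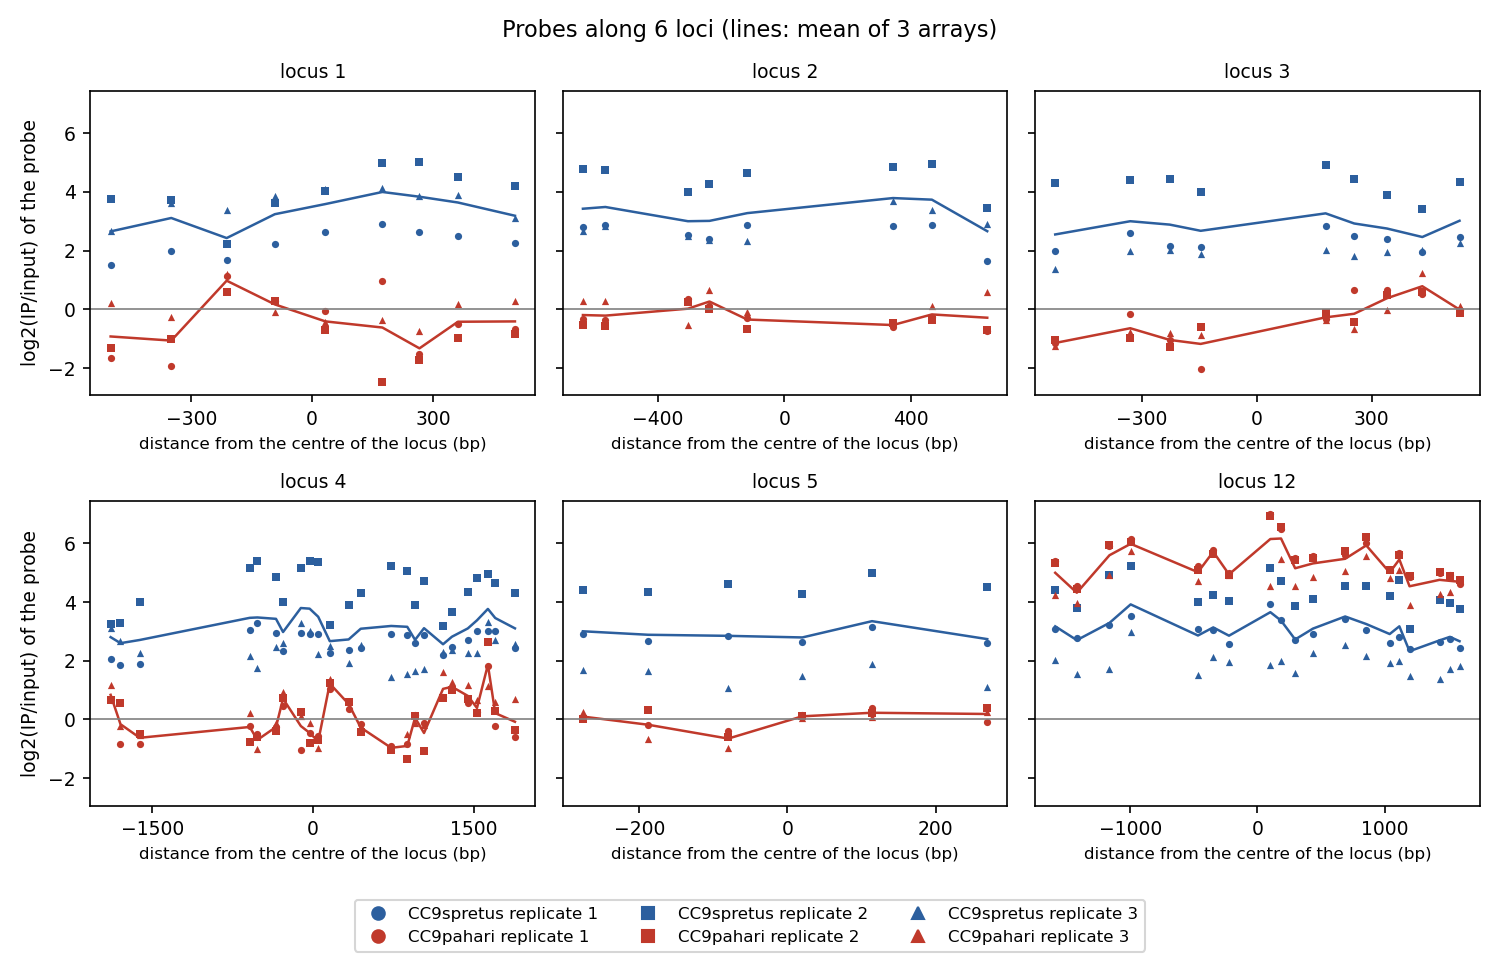
log2(IP/input) of each probe against its distance from the centre of the locus, for loci 1 to 5 and locus 12. Points are arrays and lines are means of 3 arrays; at loci 1 to 5 the CC9pahari line runs below the CC9spretus line at each probe, and at locus 12 above it.

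The difference lay in the IP channel. Over the 11 loci, the centred log2 IP signal was 2.13 to 3.78 lower in CC9pahari, whereas the input signal differed by −0.08 to 0.14. At locus 1, for example, the IP signal was 0.92, 2.42 and 1.97 on the CC9spretus arrays against −2.15, −2.49 and −1.38 on the CC9pahari arrays, while the input signal lay between −1.67 and −1.28 on all 6. Of the 297 CC9pahari IP spots at these loci, 246 (82.8%) were well above background. The IP signal of 3 probes was well above background on none of the CC9pahari arrays, so that their difference is a bound. With normexp the differences at the 11 loci were −2.38 to −0.98.

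The other lines showed where these loci could stand. The mean of CC9dunni lay between CC9pahari and CC9spretus at 10 of the 11 loci, and below CC9pahari at locus 2. CC9mus arrays, which were all scanned in the later period, ranged from −0.48 to 7.68 over the 11 loci, and their mean was above CC9spretus at 6. That mean joins unequally enriched arrays. Over loci at or above 1 in CC9dunni, the median level was 0.71, 2.62 and 3.83 on CC9mus replicates 1 to 3. These lines were not tested against CC9pahari here.

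A single locus of the set was higher in CC9pahari. Locus 12, at chr17:39980411-39983633 with 19 probes, had values of 2.97, 4.29 and 1.93 in CC9spretus and of 5.49, 5.48 and 4.76 in CC9pahari. The difference was 2.18 (SE 0.36, adjusted p = 0.0758), and all 19 probes were higher in CC9pahari. The locus beside it, at chr17:39985419-39985625, differed by 2.37 (adjusted p = 0.0813). Both channels differed at locus 12. The centred log2 IP signal was 8.60, 9.003 and 6.49 in CC9spretus and 9.57, 9.46 and 8.37 in CC9pahari. The input signal was 5.61, 4.74 and 4.73 against 4.12, 4.03 and 3.71, so that both lines were far brighter than the typical probe and CC9pahari had less input signal. IP spots were saturated in 25 of 57 cases in CC9pahari and in 16 of 57 in CC9spretus. For the 6 probes saturated on all CC9pahari arrays the difference is a bound. The 9 probes with no saturated spot gave a difference of 2.04. Whether the probes match more than 1 place in the genome was not analysed here.

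Tests across the whole array found few differences that passed. No probe of 88737 had an adjusted p under 0.05 (limma, 0%), although 9587 had an unadjusted p under 0.05, and the smallest adjusted p was 0.229. Of 14580 loci, 38 passed (0.261%), 34 of them (0.233%) higher in CC9spretus and 4 (0.0274%) higher in CC9pahari, with adjusted p between 0.0475 and 0.0499. At an unadjusted p under 0.05, 2169 loci differed, 1271 of them higher in CC9pahari. Of the 38 loci, 33 did not overlap between the lines (14.1% of all loci) and all 38 had the same sign in both periods, which the choice of loci by this test largely fixed. The difference between the lines itself differed between the periods at 115 of 14573 loci (limma interaction term, adjusted p under 0.05, 0.789%), none of them among the 12 loci above or the loci named by the test below. The interaction term rested on 1 later array per line and could miss large changes. At chr2:157385700-157386395, for example, the difference was −3.43 in the earlier and −1.25 in the later period. The loci named by the test were chosen by a fit without that term, which favours a small one. Their absence from the 115 is therefore no test of stability. With the replicate number as a block in place of scan period, no locus passed (1788 at an unadjusted p under 0.05). With a single array left out, 8 loci passed without CC9spretus replicate 1, of which 4 were among the 38, and 7 without replicate 2, of which 1 was. Without CC9spretus replicate 3 or CC9pahari replicate 3, 1 locus passed, which was not among the 38, and without CC9pahari replicate 1 or 2 none passed (1058 and 1053 at an unadjusted p under 0.05).

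**Figure D3:**
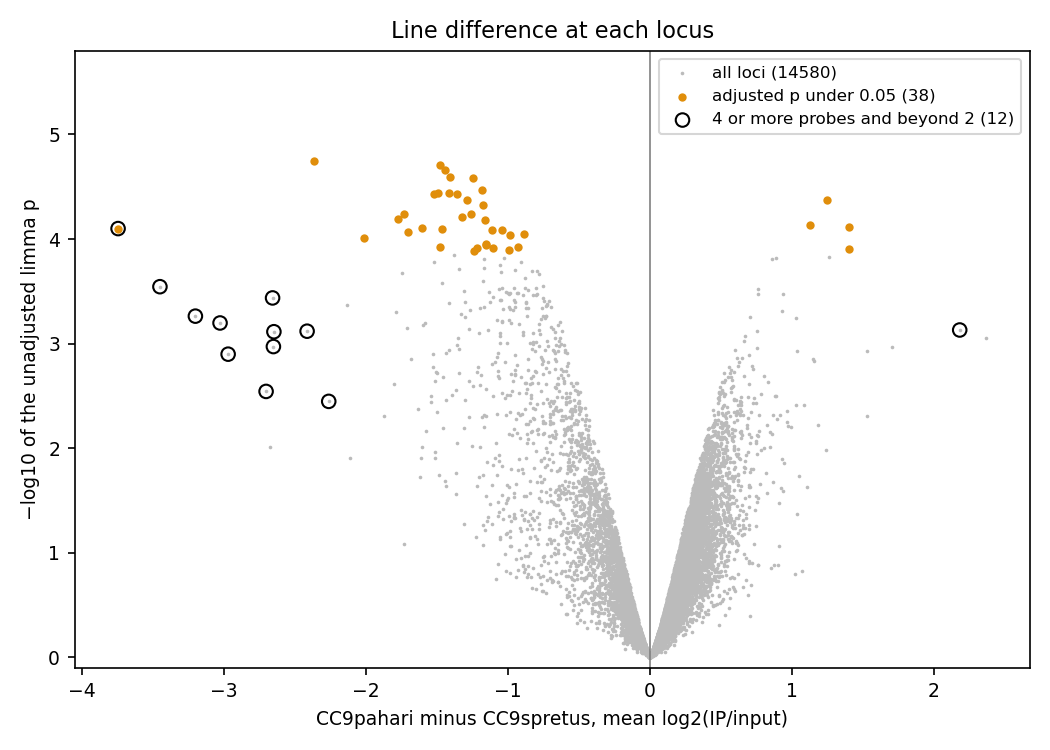
Difference between the lines at each of 14580 loci (x axis, log2) against −log10 of the unadjusted limma p. Filled orange points are the 38 loci past the adjusted threshold, 34 of them on the CC9spretus side, and open circles are the 12 loci of the plot of values by array, of which 1 passed.

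The 34 loci with more methylation in CC9spretus were mostly methylated in both lines and differed in degree. Their median difference was −1.31 and their range −3.75 to −0.89. The mean of CC9spretus was at least 2 at 31 of them, that of CC9pahari at 18, and CC9pahari was under 1 at 6. All their 160 probes were lower in CC9pahari and 121 did not overlap between the lines (10.9% of all probes did not overlap). The choice of the loci by this test largely fixed these counts. An example is chr10:79197977-79198960 with 8 probes, where CC9spretus lay at 5.17, 5.70 and 5.45, and CC9pahari at 3.89, 3.83 and 3.26 (difference −1.78, SE 0.20, adjusted p = 0.0475). The locus was strongly methylated in both lines and the arrays did not overlap.

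At chr18:65243244-65243792 with 6 probes, the values were 4.13, 4.79 and 4.24 in CC9spretus and 2.65, 2.64 and 2.68 in CC9pahari (difference −1.73, SE 0.19, adjusted p = 0.0475). At chr8:86191891-86192711 with 8 probes, they were 3.27, 3.00 and 3.10 against 1.61, 1.50 and 1.82 (difference −1.48, SE 0.13, adjusted p = 0.0475). Both loci had tight replicates in each line and stayed enriched in CC9pahari. At chr8:72240328-72240888 with 5 probes, CC9spretus lay at 2.27, 1.86 and 2.25, and CC9pahari at 0.66, 0.43 and 0.81 (difference −1.49, SE 0.15, adjusted p = 0.0475). Here CC9pahari was close to CC9dunni, at 0.46, 0.70 and 0.52. The other loci named by size were at chr2:129513719-129514091 with 4 probes (−1.48, adjusted p = 0.0499), chr3:9968580-9968907 (−1.52) and chr6:88527805-88528317 (−1.47), the latter 2 with 2 probes each and an adjusted p of 0.0475. The lines overlapped at the loci on chromosomes 2 and 6. With another background correction (normexp), 8 of the 16 loci named by the test moved by over 1.5 times and 1 passed. The difference became −0.05 at chr6:88527805-88528317, −0.49 at chr3:9968580-9968907 and −0.63 at chr8:72240328-72240888.

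Of the 38 loci, 7 rested on 1 probe, where 357 of all loci did. At chr18:37881660-37881706, the single probe had values of 4.16, 4.86 and 4.50 in CC9spretus and of 2.07, 1.91 and 2.44 in CC9pahari (difference −2.37, SE 0.21, adjusted p = 0.0475). This locus lay in a stretch of chromosome 18, between 37650807 and 38129423, in which 6 of 17 loci were lower in CC9pahari by more than 1 and 8 had an unadjusted p under 0.05 in either direction, a stretch chosen after its values were seen. Over all loci these shares were 1.31% and 14.9%. The longest of them, chr18:37925832-37928231 with 12 probes, differed by −1.02 (SE 0.15, adjusted p = 0.0619). The other single probes with less methylation in CC9pahari were at chr12:66326624-66326683 (−2.01, adjusted p = 0.0490), chr11:64334277-64334321 (−1.70) and chr17:9862146-9862203 (−1.60, both adjusted p = 0.0475). With normexp they were −0.62, −1.10 and −0.45, and the lines overlapped at the last. The IP signal at the first of these was well above background on 33.3% of the CC9pahari arrays, or 1 of 3. Its input signal was not well above background on every array, so that the size of its difference is uncertain.

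Of the 4 loci with more methylation in CC9pahari, 3 rested on 1 probe. The exception was chrX:120216918-120217515 with 5 probes, where CC9spretus lay at 3.79, 4.06 and 3.50, and CC9pahari at 5.16, 5.09 and 4.48 (difference 1.12, SE 0.13, adjusted p = 0.0475). Both lines were strongly methylated at this locus. At chr1:173003701-173003745 the values were 0.52, 0.31 and 0.66 against 1.98, 2.05 and 1.67 (difference 1.40, SE 0.16, adjusted p = 0.0475). At chr7:25733865-25733909 they were 2.47, 2.47 and 1.56 against 4.10, 4.13 and 2.46 (difference 1.40, SE 0.17, adjusted p = 0.0499), and the ranges overlapped. At chr6:115724644-115724688 they were −1.11, −1.31 and −1.55 against 0.21, 0.05 and −0.49 (difference 1.25, SE 0.13, adjusted p = 0.0475). CC9spretus was below the typical probe there, and the difference was 0.44 with normexp.

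Single probes were named only by rank, since none passed. The smallest unadjusted p among probes higher in CC9pahari was 3.17e-05 for A_68_P22882281 at chr4:45332983-45333029 (difference 1.68, adjusted p = 0.229), with IP signal well above background on 2 of the 6 arrays. It was followed by A_68_P31175229 of locus 12 (difference 2.21). Among probes lower in CC9pahari, A_68_P27278595 at chr10:79198571-79198615 (−1.89) and A_68_P26015927 at chr8:86192330-86192376 (−2.03) came first, both within loci that passed. Their adjusted p was 0.229 as well.

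The difference between the lines followed the level of methylation. The 14580 loci were grouped by their mean in CC9dunni, a line whose arrays were not part of the comparison, although its replicate 3 shared a slide with CC9spretus replicate 3. In loci below −1 in CC9dunni the median difference was 0.22 and 15.0% were lower in CC9pahari. The median was −0.22 for loci between 1 and 2, with 71.3% lower in CC9pahari, and −0.57 for loci above 4, with 86.8% lower. The fitted difference was thus slightly positive at weakly methylated loci and negative at strongly methylated ones.

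The periods differed in this relation at both ends. For loci below −1 the median difference was 0.36 in the earlier and 0.02 in the later period, so that the higher level in CC9pahari lay in the earlier period. For loci above 4 the median difference was −0.11 in the earlier and −1.47 in the later period, whereas for loci between 1 and 2 it was −0.19 and −0.23. Over the 1694 loci at or above 1 in CC9dunni, the median level was 2.43, 2.09 and 3.04 on the CC9spretus arrays, and 1.97, 1.90 and 2.58 on the CC9pahari arrays. The CC9pahari arrays were lower than the CC9spretus arrays of the same period. Of the 38 loci that passed, 33 were among these 1694, and 31 of those were higher in CC9spretus. When each array was scaled to the same median over the 1694 loci (equal enrichment), a setting added after the data were examined, no locus passed (2137 at an unadjusted p under 0.05). The 11 loci with the largest falls among those of at least 4 probes had differences of −3.69 to −2.23 under that scaling. Of the loci named by the test, 3 moved by over 1.5 times, to −1.08 at chr10:79197977-79198960, −0.96 at chr2:129513719-129514091 and 1.86 at chrX:120216918-120217515.

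**Figure D4:**
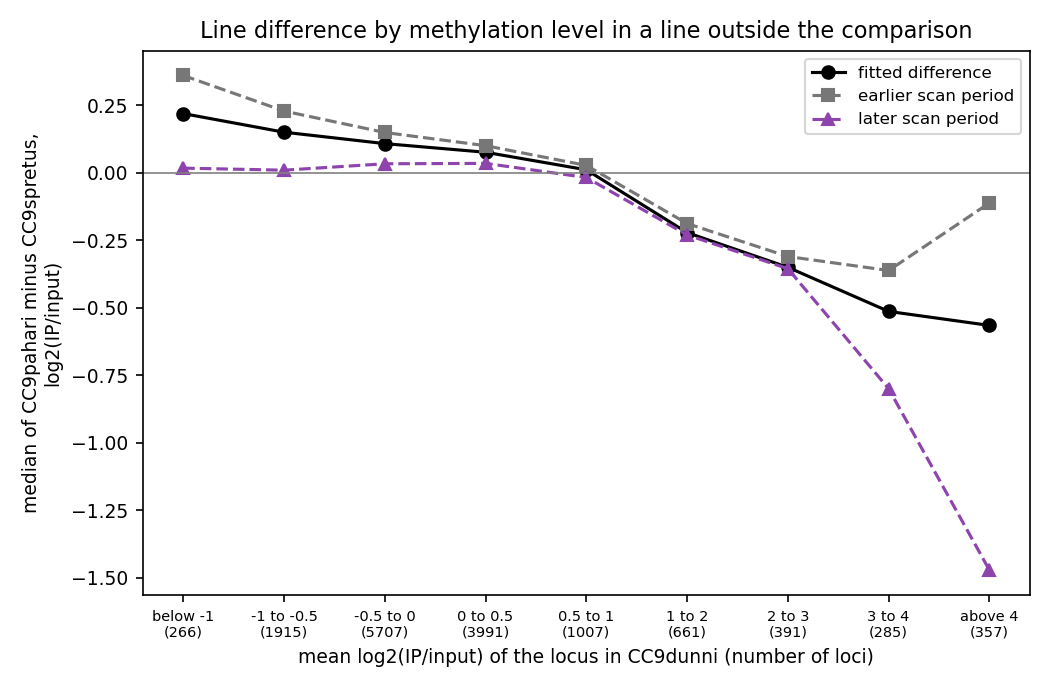
Median difference between CC9pahari and CC9spretus (y axis, log2) over loci grouped by their mean log2(IP/input) in CC9dunni (x axis, number of loci in parentheses). The fitted difference goes from 0.22 to −0.57, and the later period reaches −1.47 in the highest group where the earlier period is at −0.11.

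The study's methods name a 4-fold limit, a log2 ratio above 2 or below −2, for differential methylation between samples, joined to a limit on Z-scores. Here the 4-fold limit alone was set on the mean log2(IP/input) of each line. Above 2 lay 4183 probes in CC9pahari (4.71%) and 4576 in CC9spretus (5.16%). The lines shared 3712 of these, 88.7% of those of CC9pahari and 81.1% of those of CC9spretus. CC9spretus passed alone at 864 probes and CC9pahari at 471. This order rested on single arrays and on the scaling. It was 730 against 920 without CC9pahari replicate 1 and 687 against 955 without CC9pahari replicate 2. It was 566 against 752 without CC9spretus replicate 3, 479 against 1069 with equal enrichment and 1863 against 3394 with a threshold of 1. Without CC9spretus replicate 2 it was 1579 against 233, and without CC9pahari replicate 3 1274 against 248. Below −2 lay 110 probes in CC9pahari (0.124%) and 955 in CC9spretus (1.08%), of which 44 were shared. These low probes were unevenly spread over the CC9spretus arrays. Replicate 1 had 6508 probes below −2, replicate 2 1443 and replicate 3 173, and without replicate 1 911 probes below −2 in CC9spretus alone became 193. Without CC9spretus replicate 3 they became 2991. They were 281 with input and IP well above background, 26 with every array of the line beyond the threshold and 25 with normexp.

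Of the 2312 probes past the threshold in either direction in 1 line alone (4342 without CC9spretus replicate 3), 721 also differed by at least 1 between the lines. These comprised 332 above 2 in CC9spretus alone, 86 above 2 in CC9pahari alone, 297 below −2 in CC9spretus alone and 6 below −2 in CC9pahari alone. Among loci, 18 had a mean of at least 2 in CC9spretus and under 1 in CC9pahari, and none the reverse, while 889 were at or above 2 in both. The 18 include the 11 loci chosen by size above, and these counts were not repeated with equal enrichment.

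The input channel, which carries no precipitated DNA, was also compared between the lines by chromosome. No chromosome had an adjusted p under 0.05, which a smallest exact p of 0.1 does not allow. On chromosome 8 the median input signal, relative to the mean of the 6 arrays, was −0.12, −0.05 and −0.06 in CC9spretus and 0.05, 0.04 and 0.14 in CC9pahari. The difference was 0.15 (0.12 in the earlier and 0.20 in the later period), and the arrays did not overlap (exact permutation test over 20 assignments, two-sided, p = 0.1, the smallest possible, adjusted p = 0.182 over 20 chromosomes). The lines did not overlap on 11 of the 20 chromosomes (55.0%), most of them with far smaller differences, so that chromosomes 1, 8 and X were singled out by size after the values were seen. On chromosome 1 the values were −0.01, 0.24 and 0.02 against −0.08, −0.08 and −0.09 (difference −0.17, exact p = 0.1), with CC9spretus replicate 2 apart from the rest. The chromosome 1 difference was −0.09 without that array and −0.09 with normexp. The chromosome 8 difference was 0.080 as a mean over probes. On chromosome X they were 0.15, 0.12 and −0.04 against −0.02, −0.01 and −0.21 (difference −0.16, exact p = 0.3), so that replicate 3 was the lowest in both lines. Without CC9pahari replicate 3 the difference was −0.09. The other 17 chromosomes differed by −0.04 to 0.08.

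The log2(IP/input) difference had a median of 0.18 on chromosome 1, 0.14 on chromosome X and −0.01 on chromosome 8, and of 0.01 to 0.09 on the other chromosomes. Of the 38 loci that passed, 5 (13.2%) lay on these 3 chromosomes, which hold 13.9% of all loci. They were at chr1:173003701-173003745, chrX:120216918-120217515, chr8:72240328-72240888, chr8:86191891-86192711 and chr8:125966931-125967267. At the 3 on chromosome 8 the input signal was 0.14 to 0.24 higher and the IP signal 0.97 to 1.35 lower in CC9pahari. The 11 loci with the largest falls among those of at least 4 probes lay on other chromosomes. The part of the input signal in the differences on these 3 chromosomes was not tested.

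**Figure D5:**
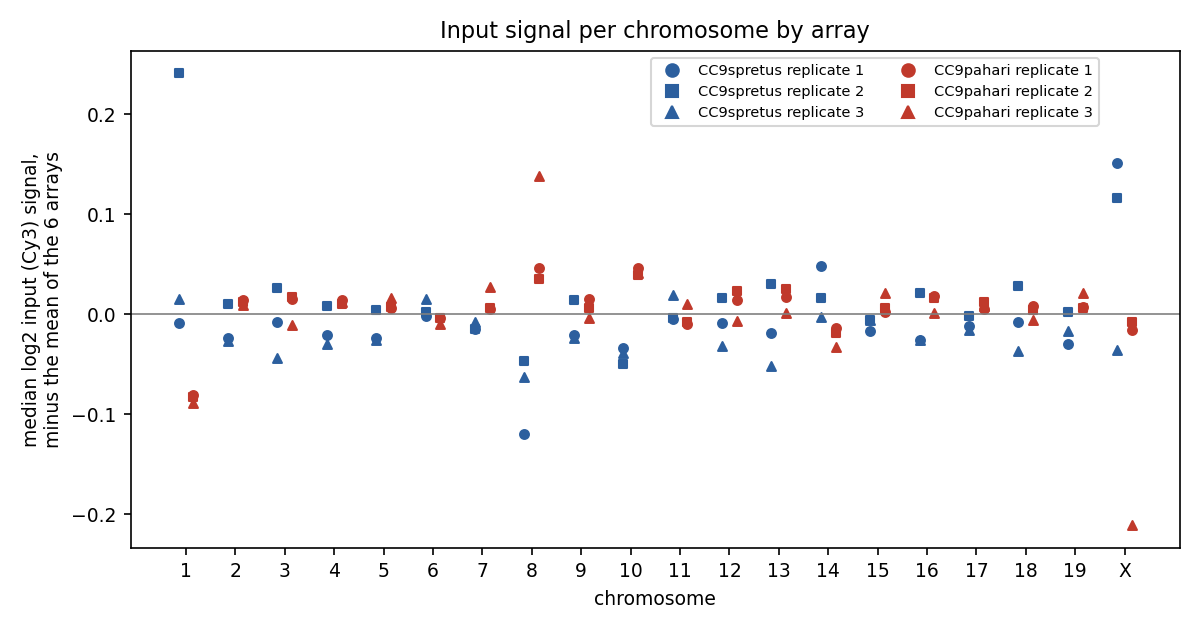
Median centred log2 input (Cy3) signal of each chromosome on each array, minus the mean of the 6 arrays. CC9spretus replicate 2 stands at 0.24 on chromosome 1, chromosome 8, with a difference of 0.15, is one of 11 of 20 chromosomes on which the lines do not overlap, and replicate 3 of CC9pahari is lowest on chromosome X at −0.21.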

How the data were processed

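Array scans were read by the authors in Agilent Feature Extraction, version 11.0.1.1 per the file headers and 11.0.1.0 per the submitters' processing notes. The deposited intensities are background-subtracted, spatially detrended and dye-normalised by a linear method. The authors' log10 ratios equal the log10 ratios in the scanner files (largest difference 0) and are not centred. Used in place of the intensities, after centring, they gave 27 loci that passed against 38. Scale and direction followed from the scanner files, Cy5 IP over Cy3 input, with no dye swap.

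log2(IP/input) was computed, outlier spots were dropped and the array median was subtracted. Positions were given for 88411 probes, and those without a placed chromosome entered no locus. limma 3.58.1 (R 4.3.3) fitted line and scan period over 6 arrays, with 3 residual degrees of freedom and Benjamini-Hochberg adjustment over all probes or loci, and was tested on simulated data. Signals over background take the place of depth, and the number of arrays limits the precision. Deviations of same-numbered replicates correlated at 0.119, 0.269 and 0.513 between the lines, so that a replicate block was fitted as an alternative, although unlike numbers of the earlier period correlated at 0.289 and 0.272 and the pairing comes from the data alone. Named loci were those past the test, up to 12 per direction by size, and named probes were ranked by unadjusted p because none passed. The comparison, lists and loci were chosen with earlier results of these data known. Alternatives covered blocks, arrays, centring, background correction, scaling, filters and gaps. Python 3.11.15 drew the figures. The authors' later steps in CytoGenomics and SPSS were not repeated.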

Additional observations from a re-analysis of the deposited data

How the results depend on the processing

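No probe passed the limma test under any alternative apart from the model of 9 arrays with CC9dunni, under which 20 passed. The number of loci that passed, 38, was the less stable result. It was 0 without the scan period term, with the replicate block, with all 12 arrays, with equal spread of the arrays, with equal enrichment, with slide as a random block over 12 arrays, and with gaps of at most 500 bp between probes. It was 1 in the earlier period alone, 3 with normexp, 107 with input and IP well above background, 140 with ratios that were not centred and 190 with the 9 arrays. Leaving out 1 array gave 0 to 8 loci and no probe, and without replicate 3 of either line the remaining later array adds nothing to the difference. At these settings 291 to 2620 loci had an unadjusted p under 0.05. None of the 38 passed in 11 of the 20 settings that kept the loci as they were. Their sign did not turn in those 20, where 1 locus had no probe left with dim probes left out, but their choice by this test largely fixed it. Signs were not compared under other gaps between probes. The cause of these shifts was not tested, apart from fewer arrays or probes where arrays or probes were left out.

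The differences at the 11 loci with the largest falls among those of at least 4 probes ranged from −4.23 to −0.98 over the settings. The smallest was under normexp, and 9 of the 11 loci passed with the 9 arrays. Their direction is no sign of stability, since the loci were chosen by size and other blocks or more arrays leave the estimate as it was. The count of probes past the 4-fold threshold in 1 line, 2312, was 780 with normexp, 1491 with input and IP well above background, 1036 with every array beyond the threshold, 13210 with a threshold of 1 and 721 with a difference of at least 1. Leaving out 1 array gave 1694 to 4342. Probes that differed by scan period numbered 20016 in the 9 arrays, and the input difference of chromosome 8 was 0.080 as a mean. Random slide blocks could not be fitted on the 6 arrays, since only 2 shared a slide. Gene list alternatives were not run, since the files do not name genes. Signal over background limits weakly methylated probes, where IP values lie close to background.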
